A study of Homo sapiens with 6 samples.

Results

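Molecular chaperones fold proteins, keep unfolded chains from clumping and pass damaged ones on for degradation. The genes described here are 40 chaperones and regulators of the heat shock and unfolded protein responses, of 34938 genes measured. They were taken by symbol: 18 act mainly in the cytosol and nucleus, 3 in mitochondria, and 19 in the endoplasmic reticulum (ER) or in signalling from it. All 40 were among the 14580 genes with enough counts to be tested.

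RNA was measured in untreated THP-1, a suspension line established from a human acute monocytic leukaemia. One group is THP-1 from the American cell bank ATCC and the other THP-1 from the German cell bank DSMZ, with 3 libraries each. Both were grown side by side in RPMI with 20% FBS, first for 48 h and, after a split, for 24 h at 37 °C and 5% CO2, and were collected in log phase, each replicate from its own expansion. No stress was applied, so every value is a level in growing cells. The labels name the bank but no stock or passage, so bank and stock cannot be told apart. In bulk RNA, a lower level per cell and fewer cells with the RNA cannot be told apart either.

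The 6 libraries held 23413428 to 37119721 estimated counts. Of 10 monocytic marker genes, 9 reached a mean of 1 TPM (a level scaled by transcript length and by library), with sums of 1134 to 1478 TPM in ATCC and 1052 to 1217 TPM in DSMZ. T cell markers (0 of 4 at 1 TPM, CD3E at 0) and erythroid markers (0 of 3) were near 0 in both banks. Of 4 B cell markers 3 reached 1 TPM, with MS4A1 at 0 and sums of 2.66 to 5.88 TPM in ATCC and 14.5 to 21.3 TPM in DSMZ. Of 4 epithelial and 4 fibroblast markers, 1 each reached 1 TPM, with sums of at most 7.11 and 3.68 TPM. The part of these markers in the results was not tested. ATCC replicate 2 stood apart from the other libraries. Of 10 groups of genes by GC content, the lowest had a median log2 deviation of -0.94 from the other ATCC libraries and the highest 0.34, against -0.03 to 0.04 and -0.05 to 0.06 in the DSMZ libraries against each other. Values without it, or with a correction for GC content, are given for the named genes whose call they change, and for some others that it moves.

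In the cytosol, HSP70 proteins and their J-protein partners bind newly made or unfolded chains, HSP90 matures client proteins such as kinases and receptors, and the ring-shaped TRiC complex folds actin and tubulin. Damaged proteins release the factor HSF1, which binds heat shock elements in the promoters of these genes. In the ER, BiP (HSPA5), GRP94 (HSP90B1), the lectin chaperones calreticulin and calnexin and the protein disulfide isomerases fold secreted and membrane proteins. When unfolded chains build up there, the sensors IRE1 (ERN1), PERK (EIF2AK3) and ATF6 start the unfolded protein response. IRE1 cuts a short intron out of XBP1 mRNA, and ATF6 and spliced XBP1 switch on genes through ER stress response elements. Monocytic cells rely on this machinery to make secreted and lysosomal proteins.

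Promoter sequences are shown first, to mark which genes hold exact matches to written forms of the elements that these factors bind. Looser forms were not searched, so a gene without a match may still carry an element. RefSeq promoter windows (GRCh38.p14, 250 bases before to 50 after the start) were found for 38 of the 40 genes, in 52 windows, and both strands were searched. A gene counts as a match if any of its windows has it, whereas the share over all windows is per window. The heat shock element searched was GAANNTTCNNGAA. It was in 4 of 17 cytosolic genes (HSPA8, HSP90AA1, HSP90AB1 and DNAJA1), 1 of 3 mitochondrial genes (HSPD1, where 2 matches overlap) and 0 of 18 ER genes, and in 0.49% of all 35116 windows. Capitals mark the match in each line below, written 5′ to 3′ on the gene's strand.
HSPA8, chr11:123062354-123062366, minus strand: GAAAGTTCCAGAA
HSPA8, chr11:123062179-123062191, minus strand: TTCTGGAAGGTTC
HSP90AA1, chr14:102087120-102087132, minus strand: TTCCGGAAGGTTC
HSP90AB1, chr6:44247763-44247858, plus strand: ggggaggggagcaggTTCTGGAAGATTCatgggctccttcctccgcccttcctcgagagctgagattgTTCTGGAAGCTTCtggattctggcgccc

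The ER stress response element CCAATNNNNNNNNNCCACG was in 6 of 18 ER genes (HSPA5, HSP90B1, CALR, CANX, PDIA6 and XBP1) and 0.0769% of all windows. Its variant ERSE-II, ATTGGNCCACG, was in 3 ER genes (HERPUD1, SDF2L1 and HYOU1) and 0.0541% of all windows. One or the other was in 9 of 18 ER genes, in 0 of the 20 cytosolic and mitochondrial genes, and in 0.131% of all windows. The core of the unfolded protein response element, TGACGTGG, was in HYOU1 alone, overlapping an ERSE-II match, and in 0.729% of all windows. Matches are printed for HSP90B1, HSPA5, CALR, PDIA6, XBP1 and HERPUD1, whose levels are given below in every library, and for SDF2L1 and HYOU1 to show the shorter variant.
HSP90B1, chr12:103930216-103930234, plus strand: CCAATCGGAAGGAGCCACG
HSP90B1, chr12:103930321-103930339, plus strand: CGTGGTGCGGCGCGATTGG
HSPA5, chr9:125241376-125241424, minus strand: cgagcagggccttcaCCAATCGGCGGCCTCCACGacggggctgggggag
CALR, chr19:12938369-12938417, plus strand: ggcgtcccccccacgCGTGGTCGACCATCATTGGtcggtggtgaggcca
PDIA6, chr2:10812838-10812886, minus strand: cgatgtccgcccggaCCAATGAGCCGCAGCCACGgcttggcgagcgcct
XBP1, chr22:28800588-28800636, minus strand: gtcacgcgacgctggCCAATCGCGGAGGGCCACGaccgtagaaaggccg
HERPUD1, chr16:56932010-56932050, plus strand: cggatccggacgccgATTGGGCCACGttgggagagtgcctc
SDF2L1, chr22:21642099-21642139, plus strand: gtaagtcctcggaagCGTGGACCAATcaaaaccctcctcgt
HYOU1, chr11:119057259-119057408, minus strand: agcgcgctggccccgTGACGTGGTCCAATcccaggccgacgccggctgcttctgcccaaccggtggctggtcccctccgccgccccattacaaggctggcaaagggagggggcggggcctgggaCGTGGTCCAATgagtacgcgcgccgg
A match is a description of these letters. Of the 5 genes with a match to the heat shock element, HSPA8 and DNAJA1 were higher in ATCC, HSPD1 was higher in DSMZ, and neither HSP90 gene passed the test. Of the 9 ER genes with a match to either ER element, HSPA5 and PDIA6 were higher in ATCC and the other 7 did not pass.

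Per length of transcript, the levels of these genes spanned a wide range. Mean levels over the 6 libraries ran from 1992 TPM for CALR and 1974 TPM for HSPA8 through 1418 TPM for P4HB, 1382 TPM for HSPD1 and 1300.1 TPM for HSP90AB1 down to 6.77 TPM for BAG3, 6.004 TPM for DNAJB9 and 4.61 TPM for ERN1. The order at the top changed with the bank. HSPA8 was at 2326 to 2637 TPM in ATCC and 1392 to 1544 TPM in DSMZ, whereas CALR was at 1579 to 1924 TPM in ATCC and 2026 to 2375 TPM in DSMZ. The ranges of these neighbours do not overlap within either bank, with HSPA8 first in ATCC and CALR first in DSMZ. P4HB (1247 to 1622 TPM), HSPD1 (870.5 to 1574 TPM) and HSP90AB1 (1206 to 1398 TPM) overlapped one another. The stress-inducible pair HSPA1A and HSPA1B together made 42.8 to 42.9 TPM in ATCC and 53.2 to 61.0 TPM in DSMZ, far under HSPA8.

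Between the banks, 16 of the 40 genes passed an adjusted p of 0.05, 7 higher in DSMZ and 9 higher in ATCC, against a background of 49.8% of all tested genes (24.1% higher in DSMZ and 25.7% higher in ATCC). The test is edgeR's quasi-likelihood test with Benjamini-Hochberg adjustment over all 14580 genes, and every fold change is log2, DSMZ minus ATCC. Counts of 16 of 40 lie under the background, and no gene of the 40 both passed and changed 2-fold, which 21.3% of all tested genes did and 13.8% of those with a mean of at least 10 CPM (counts scaled to the library total and by TMM). Of genes with at least 10 CPM 49.5% passed. The differences ran from -0.77 for CCT4 to 0.85 for HSPA1A, with a median of 0.02 beside 0.01 over all tested genes. The median absolute difference was 0.26, beside 0.47 over all tested genes and 0.39 over those with at least 10 CPM. With upper quartile normalization, which moved the median of all genes to -0.07, 13 of the 40 passed, 3 higher in DSMZ and 10 in ATCC. Of all 14580 tested genes 7120 then passed, 3020 higher in DSMZ and 4100 in ATCC. In 9 of the 40 the absolute difference reached 0.5, against 47.3% of all tested genes and 39.3% of those with at least 10 CPM.

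The libraries of the banks did not overlap in 19 genes, the 16 that passed with HSP90AB1, HERPUD1 and HYOU1, against 62.4% of all tested genes.

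The cytosolic and ER genes were then set side by side. Among the 21 cytosolic and mitochondrial genes 13 passed, 6 higher in DSMZ and 7 in ATCC, with a median difference of 0.02 and a median absolute difference of 0.35. Among the 19 ER genes 3 passed, EDEM1 higher in DSMZ and HSPA5 and PDIA6 higher in ATCC, with a median of 0.02 and a median absolute difference of 0.19. These counts lie on either side of the background, and the difference between the compartments itself was not tested. Without ATCC replicate 2 the counts were 15 of 21 and 9 of 19, against 64.1% of all tested genes (31.8% for DSMZ higher, 32.3% for ATCC higher). With the GC correction they were 14 of 21 and 8 of 19, against 64.5% (31.8% and 32.7%). With upper quartile normalization 9 of 21 passed, 2 higher in DSMZ and 7 in ATCC, and 4 of 19, 1 higher in DSMZ and 3 in ATCC. Of all 14580 tested genes 7120 passed with this normalization, 3020 higher in DSMZ and 4100 in ATCC. Both counts lay under that share. Without ATCC replicate 2 and with the GC correction the ER count lay under the background and that of the other genes lay near it.

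**Figure D1:**
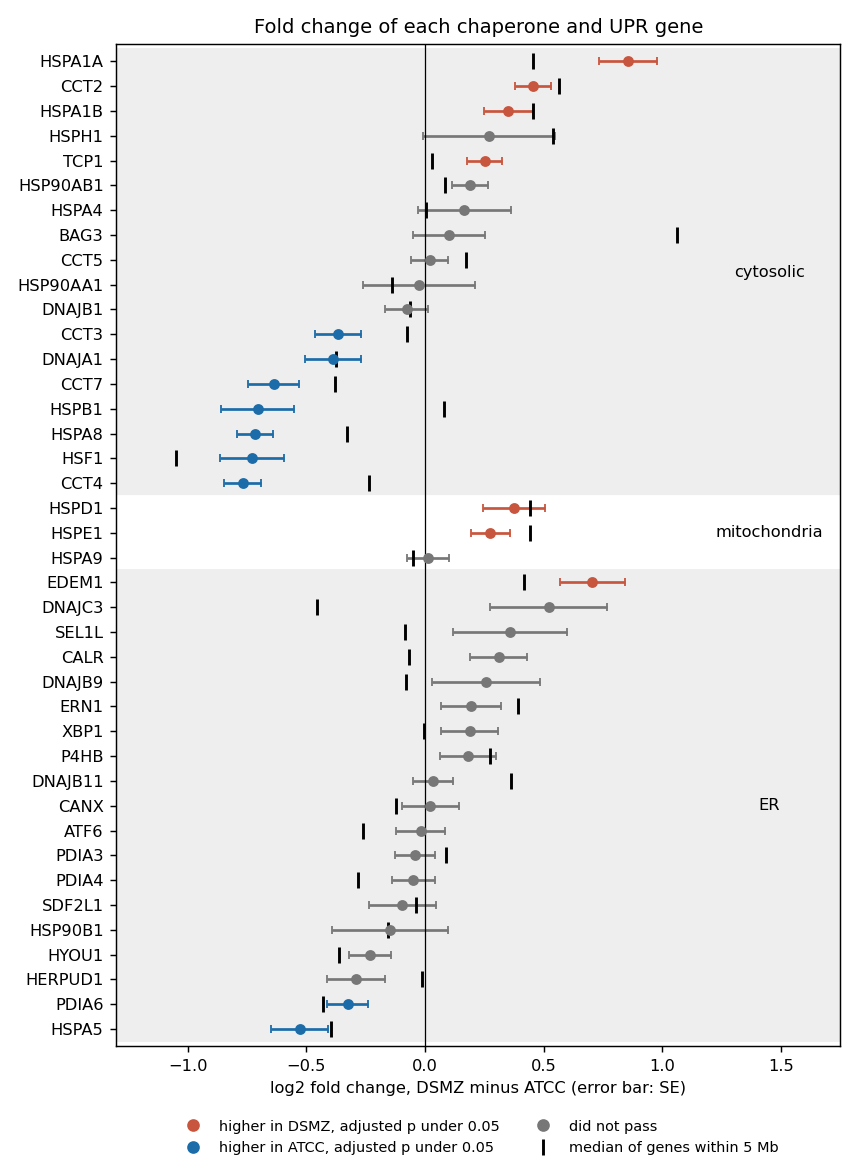
Log2 fold change (DSMZ minus ATCC) of the 40 genes by compartment, with the standard error as bars and the median of the tested genes within 5 Mb as a black tick. Coloured points passed an adjusted p of 0.05 (7 red, higher in DSMZ; 9 blue, higher in ATCC), and 3 of the 16 lie among the ER genes.

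Among cytosolic regulators, HSF1 (chromosome 8, 144291591 to 144314722), the main transcription factor of the heat shock response, was at 83.4, 115 and 89.5 CPM in ATCC replicates 1 to 3 and at 57.3, 60.03 and 56.3 CPM in DSMZ. Every ATCC library lay above every DSMZ library, and the log2 fold change was -0.73 (SE 0.13, adjusted p = 0.0032). ATCC replicate 2 was the highest, and without it the fold change was -0.57 (adjusted p = 7.65e-05). The 74 tested genes within 5 Mb had a median of -1.05, so HSF1 was less far from 0 than its neighbours. The heat shock factor HSF2, described from the wider lists, had a fold change of -0.01 (adjusted p = 0.956).

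The HSP70 genes moved in opposite directions. HSPA8 (chromosome 11, 123057489 to 123063230), the constitutive HSP70 that also strips clathrin from vesicles, was at 2594, 2584 and 2658 CPM in ATCC and 1665, 1479 and 1628 CPM in DSMZ. The groups did not overlap, and the fold change was -0.72 (SE 0.08, adjusted p = 0.000252), that is 1.64-fold higher in ATCC. HSPA1A (chromosome 6, 31815464 to 31817946), a stress-inducible HSP70, was lower in ATCC, at 12.4, 15.6 and 12.96 CPM, than in DSMZ, at 24.3, 25.98 and 23.8 CPM (0.85, SE 0.12, adjusted p = 0.000992). Its near-identical neighbour HSPA1B (chromosome 6, 31827735 to 31830255) was at 64.2, 65.7 and 66.4 CPM in ATCC and 75.4, 82.9 and 92.1 CPM in DSMZ (0.35, SE 0.10, adjusted p = 0.0245). HSPA1B did not pass without ATCC replicate 1 or 3 or DSMZ replicate 2 or 3, with adjusted p reaching 0.108.

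Reads of HSPA1A and HSPA1B can be split between the copies, and 99.6 to 100% of the counts of each lay on transcripts of alternative sequences of this region. Their sum does not depend on that split. Summed as 1 gene, they were higher in DSMZ by 0.45 (SE 0.10, adjusted p = 0.00579). The share of HSPA1A in the summed TPM was 16.2 to 20.5% in ATCC and 21.5 to 25.2% in DSMZ. The 193 tested genes within 5 Mb had a median of 0.46.

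Members of the HSP110 branch, which exchange nucleotide on HSP70, did not pass. HSPA4 (0.17, adjusted p = 0.513) and HSPH1 (0.27, adjusted p = 0.454) were lowest in ATCC replicate 2, with 194 CPM for HSPA4 against 311 to 347 CPM in the other 5 libraries, and 174 CPM for HSPH1 against 347 to 416 CPM. Without that library the differences were -0.04 and -0.01.

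Both cytosolic HSP90 genes were among the more abundant of the genes described here, and neither passed. HSP90AA1, the stress-inducible form, was at 2572, 1230.0 and 2122 CPM in ATCC and 1959, 1999 and 1859 CPM in DSMZ (-0.03, SE 0.24, adjusted p = 0.936). ATCC replicate 2 lay under every DSMZ library and the other ATCC libraries above them, and without ATCC replicate 2 the fold change was -0.27 (adjusted p = 0.0151). With the GC correction HSP90AA1 did not pass (-0.04, adjusted p = 0.805). HSP90AB1, the constitutive form, was at 2419, 2713 and 2544 CPM in ATCC and 2968, 2870.4 and 2923 CPM in DSMZ. The groups did not overlap, but the test was just missed (0.19, SE 0.08, adjusted p = 0.0679), and it was passed with the GC correction (0.22, adjusted p = 0.011) and without ATCC replicate 2 (0.24, adjusted p = 0.00269).

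The small heat shock protein HSPB1 (chromosome 7, 76302544 to 76304295), which holds unfolded proteins without using ATP, was at 186, 284 and 211 CPM in ATCC and 137, 145 and 135 CPM in DSMZ. The groups did not overlap, and it was higher in ATCC by 1.63-fold (-0.71, SE 0.16, adjusted p = 0.00719), or by -0.51 without ATCC replicate 2 (adjusted p = 0.000269). HSPB1 was the 1 gene of the 16 whose neighbours within 5 Mb had a median of the other sign, 0.08.

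Of the cytosolic J proteins, which hand clients to HSP70, DNAJA1 (chromosome 9, 33025211 to 33039907) was at 424, 319.6 and 411 CPM in ATCC and 298, 299 and 286 CPM in DSMZ (-0.39, SE 0.12, adjusted p = 0.0285). All 3 ATCC libraries were above DSMZ, and the call was lost without ATCC replicate 3 or any 1 DSMZ library (adjusted p up to 0.101). DNAJB1, a classical target of the heat shock response, had overlapping values of 76.6, 75.5 and 72.5 CPM in ATCC and 72.7, 66.2 and 74.0 CPM in DSMZ (-0.08, SE 0.09, adjusted p = 0.514). BAG3, a cochaperone that releases clients from HSP70, was at 11.2 to 14.99 CPM in ATCC and 12.2 to 15.4 CPM in DSMZ (0.10, adjusted p = 0.606), although the 39 tested genes within 5 Mb had a median of 1.06.

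TRiC subunits are assembled in equal numbers into 1 complex, and 5 of the 6 among the 40 genes passed, in both directions, against 49.8% of all tested genes. CCT4 (chromosome 2, 61868089 to 61888804) was higher in ATCC, at 480.4, 522 and 510.5 CPM, than in DSMZ, at 289.8, 293 and 306 CPM (-0.77, SE 0.08, adjusted p = 0.000205). For CCT7 (chromosome 2, 73233420 to 73253021) the values were 388, 500.2 and 429.7 CPM in ATCC and 284, 280.4 and 283 CPM in DSMZ (-0.64, SE 0.11, adjusted p = 0.00201). CCT3 (chromosome 1, 156308968 to 156367873) was at 673, 836 and 726 CPM in ATCC and 586, 572 and 574 CPM in DSMZ (-0.37, SE 0.10, adjusted p = 0.0157). In these 3 genes every ATCC library was above every DSMZ library.

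The other direction was seen in 2 subunits. CCT2 (chromosome 12, 69585334 to 69601570) was lower in ATCC, at 319, 306 and 334 CPM, than in DSMZ, at 429.8, 446 and 439.7 CPM (0.46, SE 0.08, adjusted p = 0.00218). TCP1 (chromosome 6, 159778498 to 159789749), the alpha subunit, was at 674, 672 and 719.5 CPM in ATCC and 812, 816 and 829 CPM in DSMZ (0.25, SE 0.07, adjusted p = 0.0234). CCT5 did not pass, at 509 to 563 CPM in ATCC and 545 to 550.4 CPM in DSMZ (0.02, adjusted p = 0.845). From the wider lists, CCT6A (-0.28, adjusted p = 0.0592) and CCT8 (-0.01, adjusted p = 0.944) did not pass either. CCT6A passed, higher in ATCC, with the GC correction (-0.31, adjusted p = 0.000917) and without ATCC replicate 2 (-0.37, adjusted p = 0.00018). TCP1 lost its call without any 1 library other than ATCC replicate 2 (adjusted p up to 0.124), and CCT3 without any 1 DSMZ library (up to 0.0814).

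Summed over the 6 subunits, the level was 2611.5 ± 46.3 TPM in ATCC and 2378.5 ± 58.4 TPM in DSMZ (mean ± SD, n = 3). Neighbours within 5 Mb had medians of 0.56 for CCT2, -0.24 for CCT4, -0.38 for CCT7, -0.07 for CCT3 and 0.03 for TCP1, each of the sign of the subunit.

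**Figure D2:**
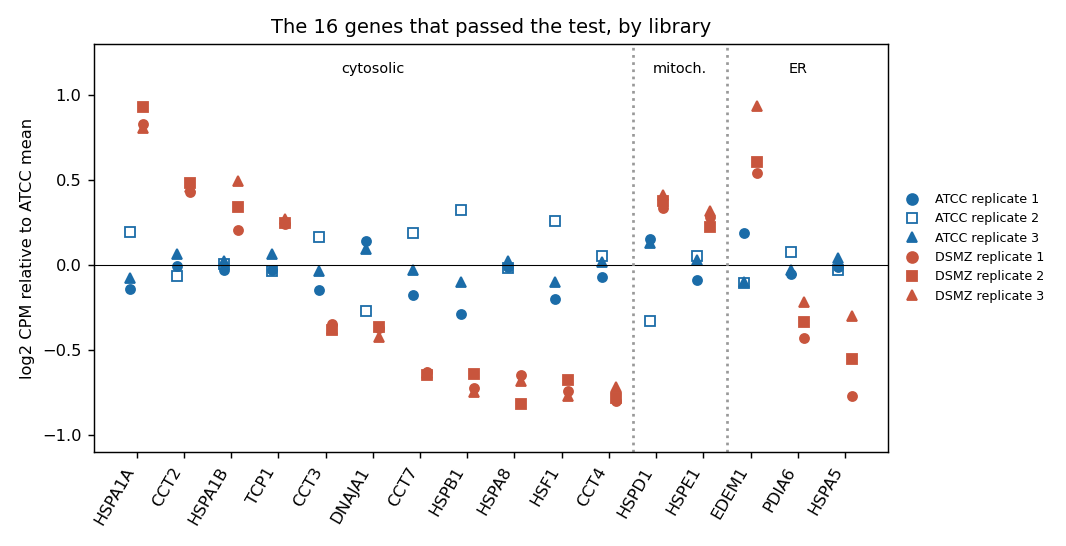
CPM of each of the 16 genes that passed, in every library, as log2 relative to the ATCC mean (blue ATCC, red DSMZ, marker shape the replicate, open squares ATCC replicate 2). The groups do not overlap in any of the 16, and ATCC replicate 2 lies farther from the ATCC mean than the other ATCC libraries for HSPD1, DNAJA1, HSPB1 and HSF1, among others.

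The mitochondrial pair HSPD1 and HSPE1, which form the HSP60 and HSP10 folding chamber, lie head to head on chromosome 2 (197486581 to 197516737 and 197499994 to 197503457). HSPD1 was at 1424, 1018 and 1397 CPM in ATCC and 1614, 1663 and 1700.3 CPM in DSMZ (0.37, SE 0.13, adjusted p = 0.0473). HSPE1 was at 245, 271 and 267 CPM in ATCC and 318, 305 and 325 CPM in DSMZ (0.28, SE 0.08, adjusted p = 0.026). Both were higher in DSMZ without overlap, but their annotated spans overlap each other and the median within 5 Mb was 0.44, above both. HSPD1 lost its call without ATCC replicate 3 or any 1 DSMZ library (adjusted p up to 0.12), and without ATCC replicate 2 its difference was 0.24 (adjusted p = 0.00246). HSPE1 lost its call without any 1 library other than ATCC replicate 2 (up to 0.14). HSPA9, the mitochondrial HSP70, did not pass, at 569 to 654 CPM in ATCC and 579.5 to 648 CPM in DSMZ (0.01, adjusted p = 0.923).

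In the ER, HSPA5 (chromosome 9, 125234853 to 125241330) encodes BiP, the HSP70 that also holds the stress sensors inactive. It was at 1074, 1059 and 1113 CPM in ATCC and 635, 738 and 877 CPM in DSMZ. All 3 ATCC libraries were above DSMZ, where the values were more spread and rose from replicate 1 to replicate 3. The fold change was -0.53 (SE 0.12, adjusted p = 0.00854), 1.44-fold higher in ATCC. The call held in each of 18 refits, and the 113 tested genes within 5 Mb had a median of -0.39.

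HSP90B1 encodes GRP94, the HSP90 of the ER. It was at 2225, 1074 and 2023 CPM in ATCC and 1527, 1527 and 1748 CPM in DSMZ (-0.15, SE 0.24, adjusted p = 0.644). ATCC replicate 2 was the lowest of the 6 and the other ATCC libraries the highest, and without it the fold change was -0.40 (adjusted p = 0.00134). HSP90B1 did not pass with the GC correction (-0.19, adjusted p = 0.258). The ER partners of BiP did not pass. DNAJB9, a J protein induced by spliced XBP1, was at 13.5, 7.99 and 12.8 CPM in ATCC and 11.3, 13.1 and 16.5 CPM in DSMZ (0.26, SE 0.23, adjusted p = 0.384), and without ATCC replicate 2 the difference was 0.07 (adjusted p = 0.712). DNAJB11, another ER J protein, was at 131 to 145 CPM in ATCC and 141 to 144 CPM in DSMZ (0.03, adjusted p = 0.759).

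DNAJC3, a lumenal J protein also known as p58IPK, was at 122, 58.4 and 101 CPM in ATCC and 120.1, 138 and 145 CPM in DSMZ (0.52, SE 0.25, adjusted p = 0.116). ATCC replicate 2 was again the lowest, and without it the difference was 0.28 (adjusted p = 0.0363). DNAJC3 also passed with the GC correction (0.38, adjusted p = 0.00743) and without ATCC replicate 1 (0.73, adjusted p = 0.0214). SDF2L1, a BiP cofactor, was at 21.6 to 27.1 CPM in ATCC and 19.4 to 25.2 CPM in DSMZ (-0.10, adjusted p = 0.604). HYOU1, the ER HSP110, had all 3 ATCC libraries (492, 555 and 527 CPM) above DSMZ (423, 440.2 and 478 CPM) without passing (-0.23, SE 0.09, adjusted p = 0.0634). It passed without ATCC replicate 2 (-0.18, adjusted p = 0.042) and with the GC correction (-0.21, adjusted p = 0.0252). Of the HYOU1 counts 50% lay on transcripts of alternative sequences, assigned by gene symbol.

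Among the lectin chaperones, which bind sugar-tagged proteins, CALR (chromosome 19, 12938578 to 12944489) was at 1815, 2356 and 2084 CPM in ATCC and 2345, 2562 and 2846 CPM in DSMZ. The groups overlapped through ATCC replicate 2, and the test was missed (0.31, SE 0.12, adjusted p = 0.0628). It was passed with the GC correction (0.33, adjusted p = 0.00791) and without ATCC replicate 2 (0.41, adjusted p = 0.00363), while the neighbours had a median of -0.07. CANX, the membrane-bound relative of CALR, was at 1343 to 1748 CPM in ATCC and 1514 to 1771 CPM in DSMZ (0.02, adjusted p = 0.891). Of the CANX counts 87.39 to 89.75% lay on transcripts of alternative sequences, assigned by gene symbol. The summed level of CALR and CANX was 2627.5 ± 106 TPM in ATCC and 3110.0 ± 219 TPM in DSMZ, without overlap.

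Of 4 protein disulfide isomerases, which make and rearrange disulfide bonds, PDIA6 (chromosome 2, 10783391 to 10837977) was at 997, 1089 and 1012 CPM in ATCC and 767, 818 and 888 CPM in DSMZ. The ATCC libraries were above DSMZ (-0.33, SE 0.09, adjusted p = 0.0162), but the call was lost without ATCC replicate 3 or DSMZ replicate 1 or 2 (adjusted p up to 0.102), and the median within 5 Mb was -0.43. PDIA3 (-0.04, adjusted p = 0.693) and PDIA4 (-0.05, adjusted p = 0.683) did not pass. P4HB, which is also a subunit of the collagen prolyl hydroxylase, was at 1502, 1918 and 1545 CPM in ATCC and 1722, 1868 and 2039.5 CPM in DSMZ (0.18, SE 0.12, adjusted p = 0.236) and passed without ATCC replicate 2 (0.31, adjusted p = 0.00521) and with the GC correction (0.23, adjusted p = 0.0268). Of the PDIA3 counts 84.0 to 87.8% lay on PDIA3-202 and of the P4HB counts 55.7 to 61.7% on P4HB-220, both annotated as subject to nonsense-mediated decay, which bears on their TPM through the transcript length.

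Genes of ER-associated degradation send misfolded proteins back to the cytosol. EDEM1 (chromosome 3, 5187646 to 5219957), which marks glycoproteins for this route, was lower in ATCC, at 319.7, 261 and 262 CPM, than in DSMZ, at 408, 428 and 537 CPM. It was the 1 ER gene higher in DSMZ (0.71, SE 0.14, adjusted p = 0.00395), 1.63-fold, and passed in each of 18 refits, with a median of 0.42 within 5 Mb. HERPUD1, an early target of the response, pointed the other way, at 44.3, 55.3 and 45.6 CPM in ATCC and 36.4, 40.4 and 41.9 CPM in DSMZ, with no overlap but without passing (-0.29, SE 0.12, adjusted p = 0.0851). HERPUD1 passed with the GC correction (-0.25, adjusted p = 0.0408) but not without ATCC replicate 2 (-0.17, adjusted p = 0.0816). SEL1L, the partner of the ubiquitin ligase SYVN1, was at 75.6 CPM in ATCC replicate 2 and 129.9 to 168 CPM in the other 5 libraries (0.36, SE 0.24, adjusted p = 0.253). Without that library the SEL1L difference was 0.12 (adjusted p = 0.286), and without ATCC replicate 1 it was 0.57 (adjusted p = 0.0471).

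None of the 3 sensors and factors passed. ERN1, which encodes IRE1, was at 11.7, 14.2 and 13.3 CPM in ATCC and 13.6, 16.4 and 14.8 CPM in DSMZ (0.19, SE 0.13, adjusted p = 0.238). ATF6, a sensor that is cut to release a transcription factor, was at 126, 106 and 126 CPM in ATCC and 122.8, 112 and 119 CPM in DSMZ (-0.02, SE 0.10, adjusted p = 0.904). XBP1 (chromosome 22, 28794555 to 28800597) was at 153, 176 and 153 CPM in ATCC and 161, 182 and 207 CPM in DSMZ (0.19, SE 0.12, adjusted p = 0.227). Values of all 3 overlapped between the banks. Without ATCC replicate 2 XBP1 passed at 0.27 (adjusted p = 0.0376), but with the GC correction it did not (0.22, adjusted p = 0.0685).

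**Figure D3:**
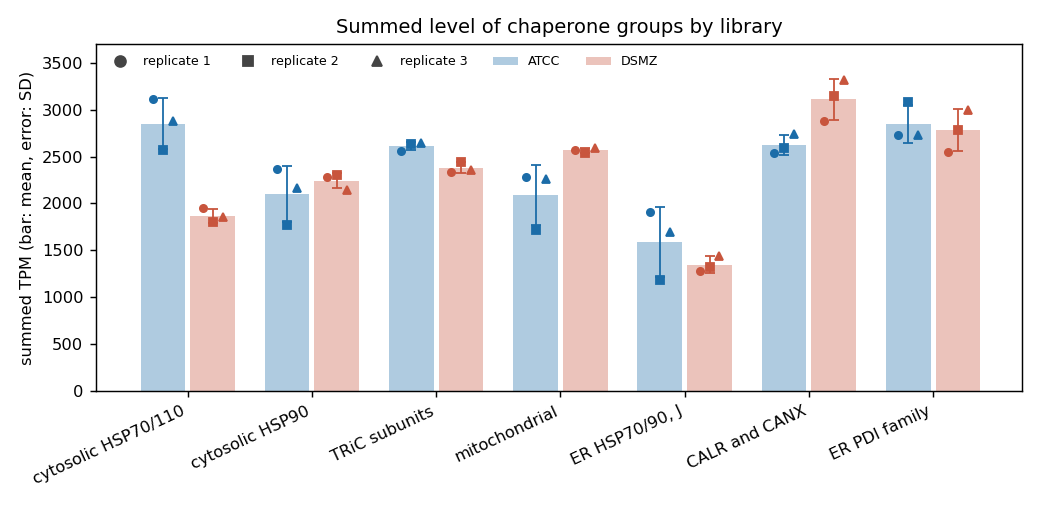
Summed TPM of 7 groups of genes in each library (points, shape the replicate), with the mean as a bar from 0 and the SD over 3 libraries as error. The cytosolic HSP70 and HSP110 group is lower in every DSMZ library (1869 ± 77.3 against 2851 ± 273 TPM), and CALR with CANX is higher in every DSMZ library (3110.0 ± 219 against 2627.5 ± 106 TPM). HSPA8 and CALR carry these differences: without HSPA8 the first group is at 401 ± 11.1 TPM in DSMZ and 372 ± 119 TPM in ATCC, and CANX alone overlaps.

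Summed levels put these genes on 1 scale per length. The cytosolic genes made 8973, 8099 and 8683 TPM in ATCC and 7218, 7217 and 6999 TPM in DSMZ, without overlap. The mitochondrial genes made 2280.4, 1721 and 2265 TPM in ATCC and 2568, 2542 and 2591 TPM in DSMZ, without overlap and in the other direction. The ER genes made 7510.5, 7156 and 7463 TPM in ATCC and 7029.9, 7599 and 8139.5 TPM in DSMZ, which overlap. Within DSMZ the ER sum thus rose from replicate 1 to replicate 3, while the cytosolic sum did not. In CPM, every ER gene rose in the same order except DNAJB11, ERN1 and ATF6. What this order among the DSMZ libraries means for the ER calls was not tested. As a ratio to the cytosolic and mitochondrial genes together, the ER genes stood at 0.667, 0.729 and 0.682 in ATCC and 0.718, 0.779 and 0.849 in DSMZ, overlapping through ATCC replicate 2.

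Single genes weighed on these sums to unlike degrees. The mitochondrial difference did not rest on HSPD1 alone. Without HSPD1 that sum was 882, 851 and 913 TPM in ATCC and 997, 1016 and 1018 TPM in DSMZ, still without overlap. Without HSPA8, the cytosolic HSP70 and HSP110 genes made 473, 240.5 and 402 TPM in ATCC and 408, 407 and 388 TPM in DSMZ, which overlap, and 4 of the 5 genes of that group had a positive difference (median 0.27). Without HSPA8 the cytosolic genes overlapped too, at 6336, 5773 and 6208 TPM in ATCC and 5673, 5825 and 5531 TPM in DSMZ. The overlap was through ATCC replicate 2, and the means were 6105.5 TPM in ATCC and 5676.6 TPM in DSMZ. The log2 difference of the cytosolic and mitochondrial sum was -0.13, and 0.01 without HSPA8. That of the ER sum was 0.04, and -0.06 without CALR. The difference of the ratio was 0.17, and turned to -0.07 without both.

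IRE1 removes the XBP1 intron, so the share of spliced transcripts is a measure apart from the level of the gene. The sequence is printed to show what distinguishes the forms: capitals mark 26 bases (chr22:28796128-28796153) present in the unspliced form. Any of 7 placements of the cut gives the same spliced sequence. The leftmost is shown, so the capitals need not be the exact bases that IRE1 removes. Both lines are from GENCODE 29 transcripts, GRCh38 chr22:28796104-28796177, minus strand.
XBP1 unspliced: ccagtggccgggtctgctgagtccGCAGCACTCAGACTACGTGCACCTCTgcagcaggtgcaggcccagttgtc
XBP1 spliced: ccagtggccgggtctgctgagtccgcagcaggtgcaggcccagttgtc
The share of XBP1 estimated counts on transcripts without these bases was 0.000663%, 7.96% and 0.141% in ATCC and 8.91%, 4.50% and 10.4% in DSMZ. The means were 2.70% ± 4.55 and 7.94% ± 3.07 (SD, n = 3). ATCC replicates 1 and 3 were near 0, and ATCC replicate 2 lay inside the DSMZ range. The difference of the means was 5.24 percentage points, with overlap of the banks through ATCC replicate 2. A two-sided exact permutation test gave p = 0.2, where 0.1 is the smallest that 3 against 3 libraries can give. With so few libraries this test cannot settle whether the banks differ in the share. Leaving out 1 library moved the difference between 3.89 and 7.87 points, the latter without ATCC replicate 2. The spliced transcript with counts (1794 bases) differs from the main unspliced one (1850 bases) by more than the 26 bases. Reads outside the junction can thus bear on kallisto's division of the counts, and the share is not a count of junction reads. Of the 3693 to 7423 counts per library on transcripts of either form, 0.0287 to 772 were put on spliced ones.

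**Figure D4:**
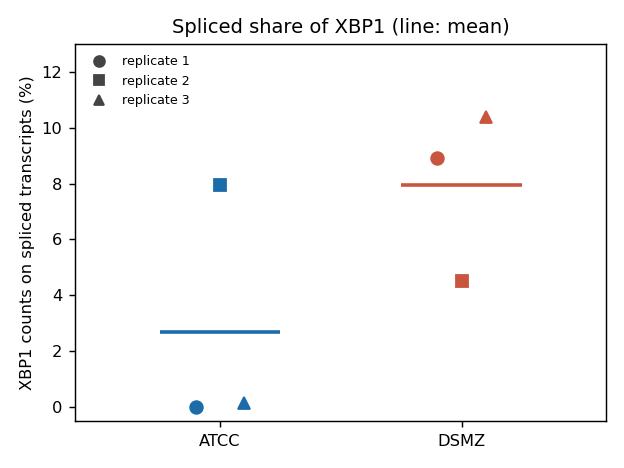
Percent of XBP1 estimated counts assigned to spliced transcripts in each library (points, shape the replicate; lines are means of 3). ATCC replicates 1 and 3 lie at 0.000663% and 0.141%, and ATCC replicate 2 at 7.96% lies among the DSMZ libraries (4.50 to 10.4%).

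A change of transcript with no overlap of the banks and a shift of at least 5 percentage points was found for 5 transcripts of 4 genes, 4 of 40, against 23.2% of all tested genes and 22.4% of those with at least 10 CPM. HSPA4-201 made 33.3% ± 2.39 of the HSPA4 counts in ATCC and 41.3% ± 1.78 in DSMZ. HSPH1-209 went from 43.6% to 48.9% as HSPH1-202 went from 22.7% to 17.0%. CCT3-201 went from 69.4% to 75.0%, and PDIA6-204 from 5.10% to 11.1%. These are descriptions with no test, and all 5 are annotated as protein coding.

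ATCC replicate 2 differed from the other ATCC libraries in step with base composition across the 40 genes. Its log2 CPM minus the mean of ATCC replicates 1 and 3 ran from -1.13 for HSPH1 (GC content 41.3%) to 0.52 for HSPB1 (63.2%). Other low values were -0.98 for HSP90B1, -0.93 for HSP90AA1 and DNAJC3 and -0.92 for SEL1L. Over the 40 genes, which share this library and are not replicates, the deviation and GC content had r = 0.75 and rho = 0.88. It was the lowest of the 6 libraries in 15 genes, 8 of them in the ER group. HSPA8 (-0.02), HSPA5 (-0.05) and CCT4 (0.08) were hardly moved by it.

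**Figure D5:**
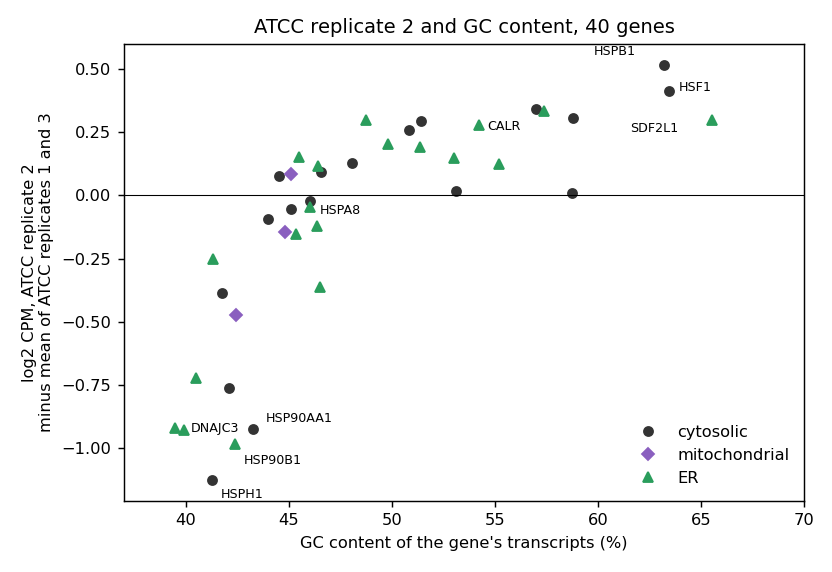
For each of the 40 genes, the log2 CPM of ATCC replicate 2 minus the mean of ATCC replicates 1 and 3, against the GC content of its transcripts in percent. Genes with low GC content lie under 0 (HSPH1 at -1.13) and those with high GC content above it (HSPB1 at 0.52).

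The genes lie on many chromosomes, and most differed in the same direction as their neighbours. In 31 of the 40 the median of the tested genes within 5 Mb, leaving out the 40 themselves, had the sign of the gene's own difference, and in 15 of the 16 that passed. Of those, 9 were farther from 0 than that median: HSPA1A, HSPA8, DNAJA1, CCT3, CCT4, CCT7, TCP1, HSPA5 and EDEM1. Over the 40 genes the 2 quantities had r = 0.61 and rho = 0.62, as a description over genes that share the same libraries. HSF1, HSPA1B, HSPD1, HSPE1, CCT2 and PDIA6 were nearer to 0 than their neighbours, and BAG3 and DNAJC3 departed most from theirs among genes that did not pass. The share of all tested genes with neighbours of the same sign was not taken, so 31 of the 40 has no background beside it. HSPA1A and HSPA1B have the same neighbour median, as do HSPD1 and HSPE1, and each gene was counted. How far the neighbourhood bears on each difference was not tested.

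Wider lists of 100 related genes, 94 of them tested, gave 18 higher in DSMZ and 18 in ATCC, 38.3% against the background of 49.8%. Without ATCC replicate 2 the numbers were 28 and 25, against 64.1% of all tested genes, and with the GC correction 25 and 27, against 64.5%. Both lay under the background of their setting. Of 7 tested other HSP70 and HSP110 genes, 2 were higher in DSMZ and 0 in ATCC (median 0.26). HSPA14, a ribosome-associated HSP70, was at 18.5 to 26.6 CPM in ATCC and 48.2 to 50.01 CPM in DSMZ (1.04, adjusted p = 0.00104), with a median of 0.99 within 5 Mb. HSPA12B was at most 0.0379 CPM in ATCC and 0.694 to 0.834 CPM in DSMZ. Of 12 other J proteins, 3 were higher in DSMZ and 1 in ATCC (median 0.13), with DNAJB12 at 1.02 and DNAJC1 at 0.45 beside DNAJA3, a mitochondrial J protein, at -0.44.

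Among 16 cochaperones, 3 were higher in DSMZ and 4 in ATCC (median -0.04). FKBP4, an immunophilin that joins HSP90 to steroid receptors, was at 85.7, 115 and 99.9 CPM in ATCC and 306, 298 and 293 CPM in DSMZ (1.58, SE 0.12, adjusted p = 6.19e-05), farther from 0 than the median of 1.00 within 5 Mb. STIP1, the adaptor between HSP70 and HSP90, was higher in ATCC, at 285, 344 and 305 CPM against 199.8, 203 and 193 CPM (-0.65, SE 0.10, adjusted p = 0.00111). CHORDC1, an HSP90 cochaperone, passed at -0.85 (adjusted p = 0.0376) although ATCC replicate 2, at 41.6 CPM, lay within the DSMZ range of 37.9 to 42.5 CPM. Of 8 further TRiC and prefoldin subunits, PFDN5 was higher in DSMZ (0.55) and VBP1 in ATCC (-0.92), with a median of -0.02. Of 6 further mitochondrial chaperones and proteases, CLPB was higher in ATCC (-0.53) and the other 5 did not pass (median -0.16). Of 3 tested heat shock factors and small heat shock proteins, 0 passed (median -0.01).

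The PERK arm, which slows translation and raises ATF4, had 3 of 6 genes higher in ATCC and 0 in DSMZ (median -0.33), against 49.8% of all tested genes. The numbers depended on ATCC replicate 2: without it 3 were higher in ATCC and 2 in DSMZ, against 64.1% of all tested genes. DDIT3, which encodes the factor CHOP, was at 24.1, 24.5 and 19.8 CPM in ATCC and 14.7, 15.04 and 16.2 CPM in DSMZ (-0.58, SE 0.12, adjusted p = 0.00561), while the median within 5 Mb was 0.41. PPP1R15A, which reverses the translation block, was at 25.003, 26.4 and 27.1 CPM in ATCC and 19.2, 15.8 and 17.2 CPM in DSMZ (-0.59, SE 0.11, adjusted p = 0.00358). CHAC1, which degrades glutathione, was low throughout, at 1.68 to 2.65 CPM in ATCC and 0.667 to 1.06 CPM in DSMZ (-1.48, adjusted p = 0.00325). ATF4 (0.13, adjusted p = 0.41), the PERK gene EIF2AK3 (-0.08, adjusted p = 0.69) and TRIB3 (0.18, adjusted p = 0.312) did not pass. Without ATCC replicate 2, ATF4 (0.27, adjusted p = 0.008) and TRIB3 (0.32, adjusted p = 0.0131) passed as higher in DSMZ, and TRIB3 also with the GC correction (0.28, adjusted p = 0.0151). With that correction ATF4 did not pass (0.16, adjusted p = 0.116).

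Of 5 genes of the ATF6 and CREB3 family and its proteases, 1 was higher in each bank (median -0.05). CREB3L2 was higher in DSMZ (0.35, adjusted p = 0.0282) and MBTPS2, the site-2 protease that releases ATF6 and is on the X chromosome, in ATCC (-1.08, adjusted p = 0.00268). MBTPS1, the site-1 protease, did not pass (-0.05, adjusted p = 0.633). Of 14 further genes of ER-associated degradation, 3 were higher in each bank (median -0.14). MAN1B1, which trims mannose, was at 65.5 to 79.8 CPM in ATCC and 22.1 to 26.02 CPM in DSMZ (-1.57, adjusted p = 7.38e-05). DERL1 was at -0.89, and OS9, a lectin of this route, at 0.73.

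Of 17 tested further ER folding genes, 5 were higher in DSMZ and 4 in ATCC (median -0.06). ERO1A, the oxidase that recharges protein disulfide isomerases, was at 56.3, 34.5 and 45.5 CPM in ATCC and 116, 108 and 127 CPM in DSMZ (1.36, SE 0.18, adjusted p = 0.000615), with a median of 0.07 within 5 Mb. FKBP11, a prolyl isomerase, was at 4.13 to 4.51 CPM in ATCC and 15.01 to 18.9 CPM in DSMZ (1.91, adjusted p = 4.9e-05). UGGT2, a folding sensor that returns glycoproteins to calreticulin and calnexin, was at 6.17 to 15.96 CPM in ATCC and 22.3 to 27.4 CPM in DSMZ (1.06, adjusted p = 0.0253), with ATCC replicate 2 the lowest.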

How the data were processed

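Per the labels' protocols, poly(A) RNA from TRIzol and RNeasy extracts was made into stranded KAPA libraries. The submitters' processing notes name kallisto 0.43.0, Trimmomatic 0.35, bcl2fastq 2.20 and the build GRCh38; the release of the transcript annotation was not given in those notes. Each library has 1 deposited file with kallisto's estimated counts per transcript, not normalized, and TPM scaled by the authors' run to 1000000 per library, per the file headers.

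Transcripts were assigned to GENCODE 29 genes: 91% by identifier on the primary assembly, 8% by gene symbol (copies on alternative sequences, 2.43 to 2.85% of the counts), and 1%, with 0.178 to 0.196% of the counts, to none and left out. Estimated counts were summed per gene, rounded to whole numbers and tested with edgeR 4.0.16 in R 4.3.3 (filterByExpr, TMM, quasi-likelihood, bank as the only term). A standard error is the absolute log2 fold change over the square root of F. Adjustment was by Benjamini-Hochberg over all 14580 genes with a threshold of 0.05, and no p is given for a list. CPM are TMM-scaled and compare libraries; TPM compare genes. Mitochondrially encoded genes held 3.94 to 5.02% of the counts. No pair of libraries of a bank was close enough to be 1 library deposited again (smallest chi-square per degree of freedom 4.61). P-values rest on the spread between replicate expansions.

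Members and gene lists were chosen with earlier results of these data known. Values in every library are given for each gene past the threshold and for 15 fixed genes, and from each wider list at most the 3 called genes with the largest absolute change and 9 fixed genes are named; values of P4HB, DNAJC3, HYOU1, SEL1L and TRIB3 were added after they were seen. For XBP1 the plan named a pair of transcripts that differ by the intron; 2 listed transcripts lack it, 1 of them with 0 counts, so all transcripts with or without it were used. The GC correction is a lowess offset per library on gene GC content (available for 99.9% of tested genes). Other normalizations, DESeq2 1.42.0, limma 3.58.1 on log2(TPM + 0.5) and log2(TPM + 0.1), other filters and transcript sets, a replicate block and leaving out each library were tried. The gene test was checked on simulated counts. Figures were drawn with matplotlib 3.10.9.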

Additional observations from a re-analysis of the deposited data

How the results depend on the processing

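With 3 libraries per bank, the number of calls moved most when 1 was left out: from 16 to between 9 (without DSMZ replicate 2) and 24 (without ATCC replicate 2) of the 40 genes, from 13 to between 7 and 15 of the cytosolic and mitochondrial genes, and from 3 to between 2 and 9 of the ER genes (6 without ATCC replicate 1). The ER count was also 5 with limma on log2(TPM + 0.5) and on log2(TPM + 0.1), and 8 with the GC correction. Over all genes the calls ranged from 5513 to 9506 when 1 library was left out, beside 7266. Of the 16 genes, 9 passed in every refit that gave them a value (HSF1, HSPA1A, HSPA5, HSPA8, HSPB1, CCT2, CCT4, CCT7 and EDEM1). HSPE1 kept its call in 8 of 18 refits, TCP1 in 9, HSPD1 in 11 and HSPA1B in 11 of 17. Upper quartile normalization moved the median of all genes to -0.07 and the share of calls higher in DSMZ from 48.4% to 42.4%. The cause of these changes was not tested.

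Among the genes that passed, the difference minus the median within 5 Mb changed sign for HSF1 (0.32), HSPA1B (-0.10), HSPD1 (-0.066), HSPE1 (-0.17), CCT2 (-0.11) and PDIA6 (0.10). Among those that did not pass, it changed sign for HSP90AA1, HSPH1, BAG3, CCT5, HSP90B1, PDIA4, P4HB, DNAJB11, ERN1, ATF6 and HYOU1. This setting gives no count of calls. Differences near 0 also changed sign: HSP90AA1 to 0.066 with limma at both pseudocounts and between -0.27 and 0.19 when 1 library was left out, HSP90B1 between -0.40 and 0.027, and ATF6 between -0.088 and 0.012, or 0.0019 with protein-coding transcripts only. The summed TPM without the most abundant gene of each group moved from -0.13 to 0.011 (cytosolic and mitochondrial), from 0.039 to -0.063 (ER) and from 0.17 to -0.074 (their ratio).

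The main test does not pair libraries by replicate number. Deviations from the group means correlated at 0.013, 0.081 and 0.16 for libraries with the same number. For libraries with different numbers the values ran from -0.10 to 0.025. Whether the numbers pair the libraries was not tested. With the replicate as a block 7022 genes passed, HSP90AA1 changed sign to 0.036, and together with the GC correction the ER count was 8 and that over all genes 9351.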
